A study of Mus musculus with 12 samples.

Results

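The ID genes and the bone morphogenetic protein (BMP) pathway genes around them were followed through 12 mouse libraries of the male germline. The set holds 10 genes, taken by symbol: the ligand gene Bmp4, the receptor gene Bmpr1a, the signal transducers Smad1 and Smad5, the inhibitor Smad6, the ID genes Id1, Id2, Id3 and Id4, and the transcription factor gene Atoh8. All 10 were found, among 35652 genes in the tables of the cultured and fetal libraries and, matched by Entrez ID, among 34896 genes in the tables of the postnatal libraries. RNA was counted by SC3-seq, a method that reads the 3′ ends of amplified cDNA, from 1 ng of RNA per library.

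The 12 libraries form 6 groups of 2. Cultured germline stem cells (GSCs) all came from a line with the transgenes Acrosin-EGFP and beta-Actin-EGFP, named AAG. They were WT or Stag3 KO, the latter as lines KO1 and KO2. The other libraries hold testis germ cells of genotype Vasa-RFPTg/0, taken on days 16 and 17 of embryonic life (E16, E17) or 7 days after birth (P7). How the knockouts were made, whether each line is 1 clone, which cells were sorted and whether animals were pooled is not stated in the sources used here. The labels also leave out whether replicates were cultured or dissected separately, so p-values measure the spread between these libraries, which may be technical.

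BMP ligands bind paired receptors at the cell surface, and the activated type I receptor, such as BMPR1A, phosphorylates SMAD1 and SMAD5. These enter the nucleus with SMAD4 and switch on target genes, among which the ID genes, Smad6 and Atoh8 are well known, and SMAD6 in turn damps the signal. ID proteins are helix-loop-helix proteins without a DNA-binding region, and they hold back E proteins and other basic helix-loop-helix factors by pairing with them. In the male germline, BMP4 is best known from the founding of primordial germ cells and from spermatogonial differentiation, and ID4 is known as a marker of spermatogonial stem cells.

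Levels are given in RPM, the reads of a gene per 1000000 reads counted on non-mitochondrial genes, and 1 gene is compared across libraries. Libraries held 1938644 to 4596607 counts, and 3 counts, the most that a count of 0 allows, came to 0.748 to 1.73 RPM, for counting error only. Germ cell markers (Ddx4, Dazl and 5 others) summed to 3209 to 4250 RPM in every group. Stag3 itself, 385 and 420.4 RPM in WT GSCs, was still counted in the knockout lines, with 295 and 304 RPM for KO1 and 137 and 152 RPM for KO2; reads of the 3′ end say nothing of a change elsewhere in a gene. Markers of testis somatic cells were also counted. The summed level of 12 Sertoli cell markers was 32.9 to 63.6 RPM in GSCs, 181 to 219 RPM in the fetal groups and 77.0 to 129 RPM at P7, with Amh at 0 in every group. In bulk libraries such as these, fewer cells of a type and less RNA per cell cannot be told apart.

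Regulatory stretches are printed for 4 genes whose changes across development are described below: Id4, Smad1, Smad5 and Bmp4. They are RefSeq sequence of build GRCm38.p6, lie upstream of the annotated gene start and are written 5′ to 3′ along the strand of the gene. Capitals mark GGCGCC, a GC-rich word bound by SMAD1 and SMAD5, and GTCT or its complement AGAC, the word bound by SMAD4. Id4 lies at chr13:48261116-48266028 and its stretch at chr13:48260866-48261115 (+ strand). Smad1 lies at chr8:79338395-79399428 and its stretch at chr8:79399519-79399678 (- strand). Smad5 lies at chr13:56703010-56742378 and its stretch at chr13:56702760-56703009 (+ strand). Bmp4 lies at chr14:46383525-46390669 and its stretch at chr14:46390670-46390919 (- strand).
Id4: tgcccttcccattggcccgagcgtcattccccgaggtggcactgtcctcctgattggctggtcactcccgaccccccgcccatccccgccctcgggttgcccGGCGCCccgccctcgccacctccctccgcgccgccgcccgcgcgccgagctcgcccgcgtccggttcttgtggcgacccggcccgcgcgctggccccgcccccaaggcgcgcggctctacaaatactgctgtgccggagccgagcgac
Smad1: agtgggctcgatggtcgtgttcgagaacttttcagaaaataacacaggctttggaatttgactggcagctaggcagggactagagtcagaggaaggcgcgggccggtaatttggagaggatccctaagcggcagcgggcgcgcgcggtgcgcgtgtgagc
Smad5: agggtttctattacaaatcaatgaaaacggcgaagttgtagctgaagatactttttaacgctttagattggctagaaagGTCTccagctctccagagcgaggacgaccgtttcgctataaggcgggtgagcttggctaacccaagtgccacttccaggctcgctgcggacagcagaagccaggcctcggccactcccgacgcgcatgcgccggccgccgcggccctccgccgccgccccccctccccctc
Bmp4: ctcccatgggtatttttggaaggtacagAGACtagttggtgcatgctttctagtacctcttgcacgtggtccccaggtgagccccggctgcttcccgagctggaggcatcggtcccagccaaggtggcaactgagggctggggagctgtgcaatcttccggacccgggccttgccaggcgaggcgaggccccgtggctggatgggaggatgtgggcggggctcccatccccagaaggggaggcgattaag
The Id4 stretch holds 1 GGCGCC and no GTCT, the Smad1 stretch holds neither, and the Smad5 and Bmp4 stretches hold 1 GTCT or AGAC each and no GGCGCC. In 250 bases before the start, GGCGCC occurs in 9.59% of 32851 RefSeq promoter windows and GTCT, on either strand, in 82.9%. Windows were matched for 9 of the 10 members. GGCGCC was found once each in the windows of Id2, Id4 and Bmpr1a, and in 1 of the 3 windows annotated for Smad5. These are matches of letters and not measured binding.

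**Figure D1:**
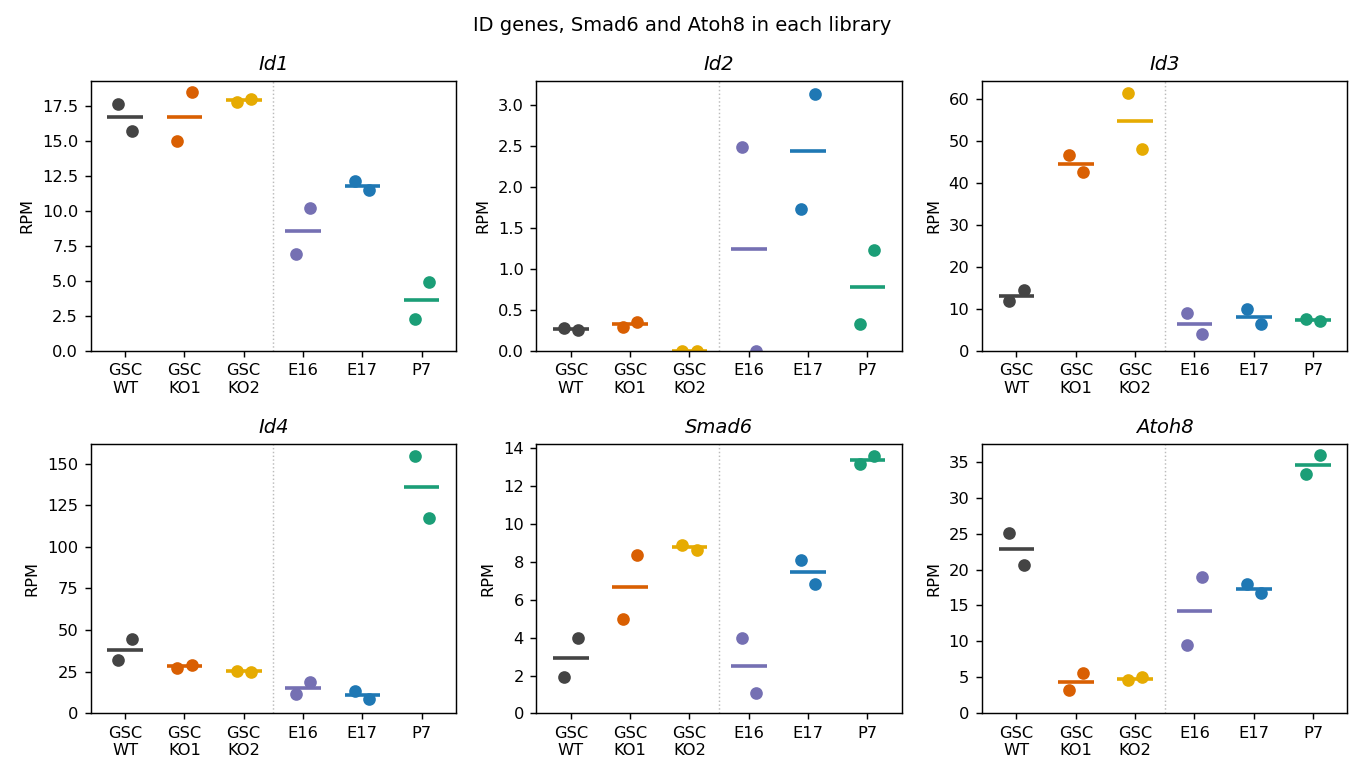
Level (RPM, linear axis from 0) of the ID genes, Smad6 and Atoh8 in each library of the 6 groups; points are libraries and bars are means of 2. Both lines of Stag3 KO cells stand above WT for Id3 and below WT for Atoh8, and the P7 libraries stand above all others for Id4.

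The first comparison asked how the set differs between Stag3 KO and WT cells, with the lines averaged. Among the target genes Id3 rose and Atoh8 fell, each by several fold and in both lines, while Smad6 rose and Id4 fell by less. Id1 did not pass the test, and neither did the receptor Bmpr1a or the transducers Smad1 and Smad5. Of 8 members that passed the filter on low counts, 4 had a Benjamini-Hochberg adjusted p under 0.05 in the quasi-likelihood test of edgeR, 2 higher and 2 lower. Of all 11890 genes tested, 19.2% did, 8.64% higher and 10.6% lower. The members' share lies above that of all genes, in a set chosen with results of these data known. The median log2 fold change was 0.16 over the 8 members and 0.00 over all genes. Id2 and Bmp4 were too low to be tested in GSCs.

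Id3, at chr4:136143822-136145392, had 11.7 and 14.4 RPM in WT, 46.5 and 42.6 in KO1, and 61.3 and 48.0 in KO2. Every knockout library stood well above both WT libraries, and the lines overlapped neither WT nor each other. Id3 encodes an ID protein that in many tissues answers BMP signals quickly. Its log2 fold change was 1.86 ± 0.18 (SE) for the mean of the lines (adjusted p = 8.55e-15, edgeR), 1.71 ± 0.21 in KO1 (adjusted p = 9.82e-11) and 2.01 ± 0.20 in KO2 (adjusted p = 1.8e-14). Over the alternative settings and left-out libraries the value for the mean stayed between 1.74 and 1.99, always past the threshold.

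Atoh8, a basic helix-loop-helix factor gene at chr6:72206174-72235780, moved the other way. Its level was 25.05 and 20.7 RPM in WT, 3.24 and 5.59 in KO1, and 4.59 and 4.99 in KO2. Both lines lay far below WT and overlapped with each other. The log2 fold change was -2.37 ± 0.27 for the mean (adjusted p = 1.08e-11, edgeR), -2.44 ± 0.35 in KO1 (adjusted p = 3.01e-08) and -2.29 ± 0.33 in KO2 (adjusted p = 3.45e-08). For the mean it stayed between -2.57 and -2.19 over the alternatives. The annotation places Gm52906 over part of Atoh8, and whether reads were counted by strand is not known, so reads of that gene could be counted with it.

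Smad6, at chr9:63953076-64022085, encodes the inhibitory SMAD that is itself a BMP target. It had 1.91 and 3.99 RPM in WT, 5.002 and 8.38 in KO1, and 8.91 and 8.60 in KO2. All 4 knockout libraries were above both WT libraries, although WT rested on 23 counts in all. The log2 fold change for the mean was 1.29 ± 0.42 (adjusted p = 0.0189, edgeR). KO2 alone passed the test (1.498 ± 0.46, adjusted p = 0.0147), and KO1 did not (1.09 ± 0.48, adjusted p = 0.124). The call for the mean was lost by DESeq2 (adjusted p = 0.111), in the fit of all 12 libraries (0.066), without WT replicate 1 (log2 fold change 0.89, adjusted p = 0.224) and without KO1 replicate 2 (1.10, adjusted p = 0.0987). That in KO2 was lost by DESeq2 (adjusted p = 0.117), in the fit of all 12 libraries (0.0585), and without WT replicate 1 (0.148), KO2 replicate 1 (0.0947) or KO2 replicate 2 (0.075).

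Id4 had 32.1 and 44.6 RPM in WT, 27.4 and 29.0 in KO1, and 25.6 and 24.97 in KO2. All knockout libraries were below WT, by a small margin from WT replicate 1. The log2 fold change was -0.58 ± 0.16 for the mean (adjusted p = 0.00657, edgeR), -0.50 ± 0.19 in KO1 (adjusted p = 0.0706) and -0.65 ± 0.19 in KO2 (adjusted p = 0.0115). WT replicate 2 carried much of this, for without it the value was -0.35 for the mean (adjusted p = 0.261) and -0.43 in KO2 (adjusted p = 0.217). DESeq2 also left Id4 short of the threshold for the mean (adjusted p = 0.0812) and in KO2 (0.117). In KO2 the call was lost as well with size factors from the totals of the ERCC spike-ins, RNAs added to each sample (0.0597), in the fit of all 12 libraries (0.0555), and without KO2 replicate 1 (0.0687) or KO2 replicate 2 (0.0931). In KO1 it passed without WT replicate 1 (-0.70, adjusted p = 0.018).

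Id1, at chr2:152736251-152737410, had 17.7 and 15.7 RPM in WT, 15.0 and 18.5 in KO1, and 17.8 and 18.0 in KO2. These groups overlapped, apart from KO2, which lay just above WT. The log2 fold change for the mean was 0.00 with a 95% confidence interval from -0.44 to 0.44 (adjusted p = 0.997, edgeR), which leaves room for a modest change but not for one of the size seen in Id3. Id2, at chr12:25093799-25096092, was hardly counted in GSCs, with 1 count in each WT library, 1 in each KO1 library and none in KO2. Id2 was thus under the floor of 3 counts in all 6 GSC libraries.

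Among the upstream genes, Bmpr1a, at chr14:34411061-34503336, had 101 and 125 RPM in WT, 136 and 146 in KO1, and 124 and 144 in KO2. WT replicate 2 lay within the range of KO2. Its log2 fold change of 0.23 ± 0.10 for the mean did not pass the test (adjusted p = 0.0829, edgeR). It did without WT replicate 2 (0.36, adjusted p = 0.0149), and KO1 alone then passed too (0.40, adjusted p = 0.0166). With the replicate number as a block in the fit, Bmpr1a also passed for the mean (0.24, adjusted p = 0.0464).

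Smad1 had 14.4 and 14.0 RPM in WT, 13.2 and 14.3 in KO1, and 19.7 and 15.5 in KO2, with a log2 fold change of 0.09 for the mean (95% confidence interval -0.38 to 0.55, adjusted p = 0.851, edgeR). Smad5 had 47.6 and 58.3 RPM in WT, 61.5 and 69.8 in KO1, and 60.2 and 72.4 in KO2. All knockout libraries of Smad5 were above WT, yet the log2 fold change of 0.26 ± 0.13 did not pass the test (adjusted p = 0.15). Bmp4 had 1 count in each WT library, 2 in each KO1 library and 0 in KO2, all under the floor.

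**Figure D2:**
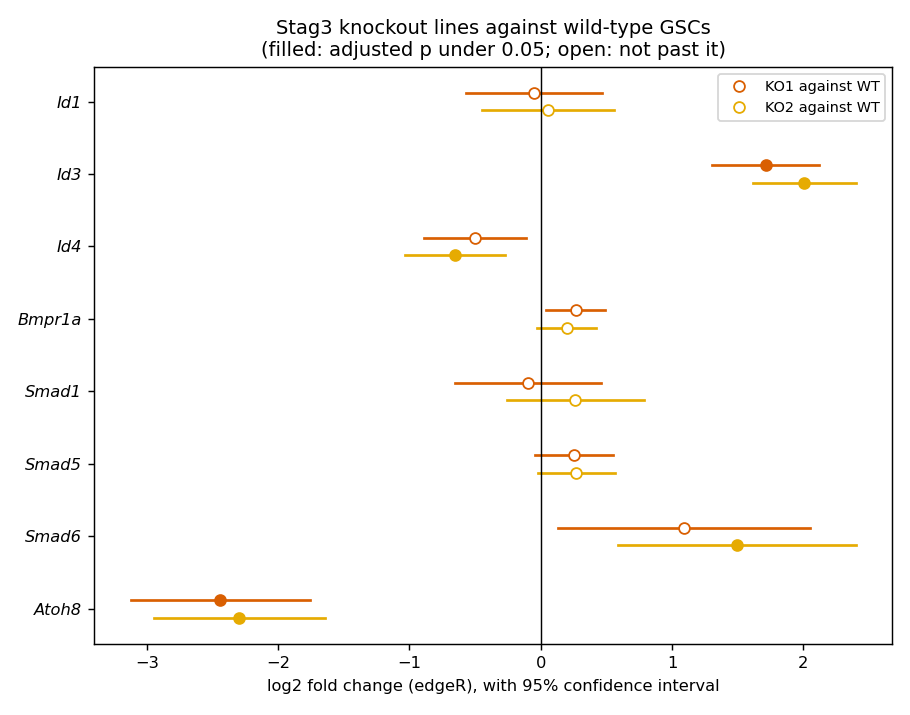
Fitted log2 fold change of each tested member in KO1 and in KO2 against WT GSCs (points, edgeR), with 95% confidence intervals (lines); filled points passed an adjusted p of 0.05. Id3 lies at 1.71 and 2.01 and Atoh8 at -2.44 and -2.29, while Id1 and Smad1 lie on both sides of 0.

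By line, 2 of the 8 tested members passed in KO1, 1 higher and 1 lower, beside 13.6% of all genes (6.24% higher, 7.4% lower). This is near the background, on so few genes. In KO2 4 of 8 passed, 2 higher and 2 lower, beside 15.6% of all genes (7.19% higher, 8.45% lower). The lines share their WT libraries. A direct test of KO1 against KO2 found no member past the threshold (edgeR), none at an unadjusted p under 0.05 and none with DESeq2; of all genes 0.833% passed. The difference between the lines in Id3 was -0.29 with a 95% confidence interval from -0.63 to 0.04. For Atoh8 it was -0.15 with an interval from -0.997 to 0.71, which does not exclude a sizeable difference. Stag3 RNA itself was 1.05 ± 0.09 higher on the log2 scale in KO1 than in KO2 (adjusted p = 3.26e-16).

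Other genes of the pathway were read from lists of ligands, receptors and co-receptors, SMADs, inhibitors inside the cell, antagonists outside it, and targets. Of 56 such genes besides the members, 27 were tested in GSCs, and 3 rose and 5 fell for the mean of the lines. Of all genes 8.64% rose and 10.6% fell. Their median log2 fold change was -0.22, beside 0.00 over all genes. Chrd, the secreted BMP antagonist chordin, rose from 10.4 to 27.8 RPM (log2 fold change 1.35 ± 0.22, adjusted p = 8.98e-07, edgeR). Smad7, the other inhibitory SMAD, rose from 11.9 to 20.5 RPM (0.73 ± 0.23, adjusted p = 0.0167). By line Smad7 passed in KO1 (0.76 ± 0.26, adjusted p = 0.0394, edgeR) and not in KO2. DESeq2 called 2 genes of the target list in each line, Id3 and Atoh8, and so not Smad7. The third to rise was Skil, a SMAD co-repressor gene named here after its values were seen. Skil also passed in KO1 and not in KO2.

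The genes that fell included Hey1, a helix-loop-helix repressor gene, from 40.0 to 26.7 RPM (-0.64 ± 0.16, adjusted p = 0.002, edgeR). The type II receptor gene Acvr2b went from 45.5 to 34.8 RPM (-0.44 ± 0.15, adjusted p = 0.0246). Fstl1, which encodes a follistatin-like secreted protein, went from 35.7 to 23.1 RPM (-0.68 ± 0.17, adjusted p = 0.00191). Hey1 and Fstl1 passed in each line by edgeR, and Acvr2b in neither. Bmpr1b and Ski also fell and are named after their values were seen. Bmpr1b, a type I receptor gene of low level, had 3.81 and 3.99 RPM in WT, 0.589 and 0.349 in KO1, and 0 and 0.277 in KO2. These were 30 counts in WT, 3 in KO1 and 1 in KO2. It was called lower in each line by edgeR, while DESeq2 called no gene of the receptor list in either line. No gene of the ligand list passed in the edgeR test of 4, none at an unadjusted p under 0.05 and none with DESeq2.

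A helix-loop-helix list held the E protein genes Tcf3, Tcf4 and Tcf12 and other basic helix-loop-helix factor genes, and all were tested. Whether ID proteins bind the listed factors that are not E proteins was not tested. None of the 8 rose and 5 fell (Tcf3, Sohlh1, Figla, Tcfl5 and Ascl2), beside 8.64% of all genes that were higher and 10.6% that were lower. Sohlh1, a factor of spermatogonial differentiation, had 58.9 RPM in WT cells, 6.43 in line KO1 and 1.22 in line KO2, and was the one gene of this list that differed between the lines. DESeq2 called 2 of the 8. Tcf3, Figla, Tcfl5 and Ascl2 are named because they complete the count.

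Markers of other cells differed with the knockout in part. The summed level of the 12 Sertoli cell markers was 32.9 to 35.9 RPM in WT, 62.2 to 63.6 in KO1 and 41.9 to 47.4 in KO2, with 2 of 5 tested markers higher (Clu, Aard) and 1 lower (Wt1), and with Amh, Cst9, Cst12, Fshr and Rhox8 at 0 in all GSC groups. Fibroblast and feeder markers summed to 271 to 289.6 RPM in WT, 252 to 261 in KO1 and 244 to 259.9 in KO2. Of 8 tested, 5 were lower (Col1a1, Col1a2, Col3a1, Dcn, Pdgfra) and none higher. Fn1 alone held 159 and 165 RPM of that sum in WT, 184 and 191 in KO1, and 178 and 183 in KO2. Of 10 markers of undifferentiated spermatogonia 4 were higher (Ret, Etv5, Bcl6b, Lhx1) and 4 lower (Zbtb16, Sall4, Lin28a, Uchl1), with a median log2 fold change of 0.06. Of 7 germ cell markers 5 were lower (Ddx4, Mael, Piwil2, Tdrd1, Dnd1) and none higher; they summed to 3543 to 3855 RPM in WT, 3624 to 3807 in KO1 and 3209 to 3244 in KO2. The part of these markers in the results for Id3, Id4, Smad6 and Atoh8 was not tested.

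**Figure D3:**
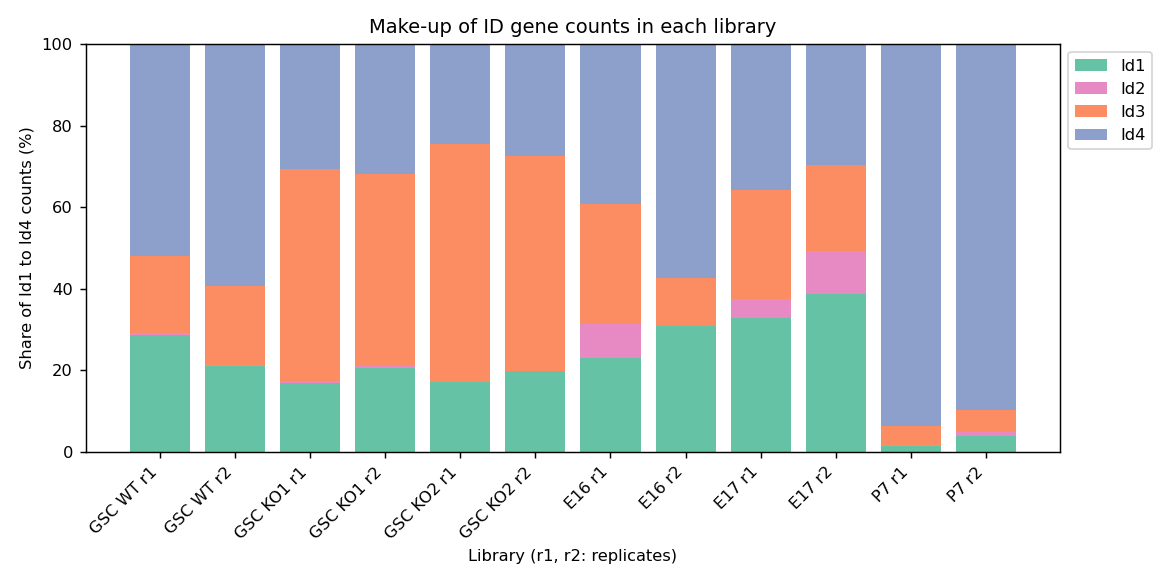
Share (%) of the summed counts of Id1 to Id4 that each gene took in each library (stacked bars, 1 bar a library). Id3 took 18.9% and 19.3% in WT GSCs and between 47.1% and 58.5% in the knockout libraries, and Id4 took 93.8% and 89.8% at P7.

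Set against the summed counts of the 4 ID genes, the knockout libraries had another make-up. Counts are not corrected for transcript length, so a share is compared only with the same share in other libraries. Id3 made up 18.9% of ID counts in WT replicate 1 (exact 95% confidence interval 14.1% to 24.7%, for counting error only) and 19.3% in replicate 2. It made up 52.1% and 47.1% in KO1 and 58.5% and 52.7% in KO2. Id4 made up 52.0% and 59.5% in WT, 30.7% and 32.0% in KO1, and 24.5% and 27.4% in KO2. Id3 thus took a higher share, and Id4 a lower one, in all 4 knockout libraries than in both WT libraries. The summed level of the ID genes was 61.8 and 75.0 RPM in WT, 89.2 and 90.4 in KO1, and 105 and 91.0 in KO2, so each knockout library held more ID RNA per read than either WT library.

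**Figure D4:**
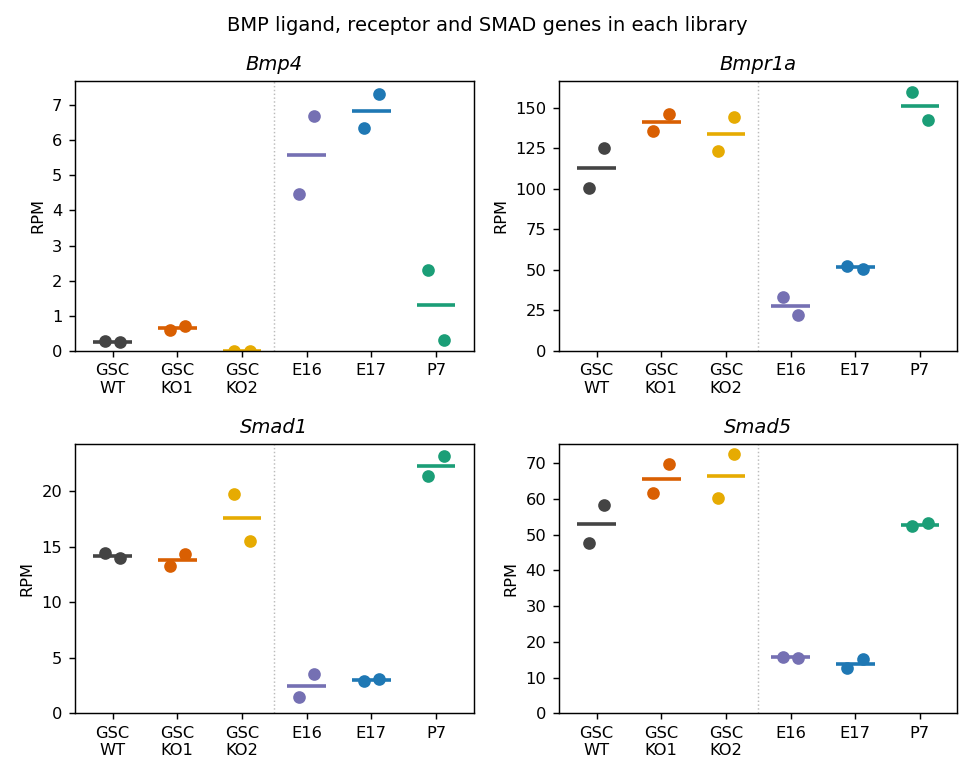
Level (RPM, linear axis from 0) of the ligand gene Bmp4, the receptor gene Bmpr1a and the transducer genes Smad1 and Smad5 in each library; points are libraries and bars are means of 2. Bmpr1a, Smad1 and Smad5 are low at E16 and E17 and high at P7 and in GSCs, and Bmp4 is highest in the fetal libraries.

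The second set of comparisons followed the genes in germ cells of the testis. From E17 to P7 the members Bmpr1a, Smad1 and Smad5 rose together with Id4 and Atoh8, and Id1 and Bmp4 fell. Of 9 members tested, 5 rose and 2 fell (edgeR, adjusted p under 0.05). Most genes change between these ages, however: 67.9% of 14776 genes passed, 30.2% higher and 37.8% lower, so 7 of 9 is close to the background. The median log2 fold change was 1.15 over the 9 members and -0.13 over all genes. These values are per read. With size factors from ERCC totals the median of all genes moved by -4.68, only 0.255% of the genes called were higher, where TMM gave 44.4%, and Id4, Bmpr1a, Smad1, Smad5 and Atoh8 were then lower at P7; relative to the median of all genes they kept their sign. The P7 libraries also differ in gene list and library set, so stage and library set cannot be told apart.

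Id4 showed the steepest change among the members. It had 11.9 and 19.0 RPM at E16, 13.3 and 8.90 at E17, and 155 and 117 at P7. Both P7 libraries were several times above each fetal library. The log2 fold change from E17 to P7 was 3.77 ± 0.28 (adjusted p = 4.01e-08, edgeR). The annotation places the noncoding gene A330033J07Rik over part of Id4; it had 6 to 23 counts in the testis libraries and 1 to 4 in GSCs, against 379 and 470 counts of Id4 at P7. Of 10 markers of undifferentiated spermatogonia 9 were higher at P7 and none lower, beside 30.2% of all genes that were higher. Their median log2 fold change of 3.35 was near that of Id4. Their sum went from 1225 to 1280 RPM at E17 to 2246 to 2359 RPM at P7, but Uchl1 alone held 1048 and 1096 RPM of it at E17. The part of these markers in the result was not tested. Id4 made up 35.9% and 29.8% of ID counts at E17 and 93.8% and 89.8% at P7.

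The other ID genes did not follow Id4. Id1 had 6.96 and 10.2 RPM at E16, 12.1 and 11.5 at E17, and 2.30 and 4.95 at P7, with both P7 libraries below all fetal ones. Its log2 fold change from E17 to P7 was -1.52 ± 0.52 (adjusted p = 0.0168, edgeR). That call was lost without E17 replicate 1 (adjusted p = 0.0897), without E17 replicate 2 (0.0756) and without P7 replicate 1 (log2 fold change -1.05, adjusted p = 0.142).

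Id3 had 8.95 and 3.87 RPM at E16, 9.83 and 6.28 at E17, and 7.56 and 7.11 at P7. The 3 ages overlapped, and the log2 fold change from E17 to P7 was 0.03 with a wide 95% confidence interval from -1.06 to 1.12 (adjusted p = 0.963, edgeR). Id2 had 5 and 0 counts at E16, 3 and 6 at E17, and 1 and 4 at P7, and was not tested. From E17 to P7 its ratio of levels was 0.322 with an exact 95% counting interval of 0.0849 to 1.07.

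The receptor gene Bmpr1a had 33.3 and 21.8 RPM at E16, 52.6 and 50.8 at E17, and 159.8 and 142 at P7, each age above the one before. From E17 to P7 it rose by a log2 fold change of 1.70 ± 0.19 (adjusted p = 1.75e-06, edgeR). Smad1 had 1.49 and 3.52 RPM at E16, 2.89 and 3.14 at E17, and 21.4 and 23.2 at P7, and rose by 3.02 ± 0.49 (adjusted p = 7e-05). Only 11 counts stood behind the E17 level of Smad1. Smad5 had 15.9 and 15.5 RPM at E16, 12.7 and 15.2 at E17, and 52.3 and 53.2 at P7, and rose by 2.07 ± 0.26 (adjusted p = 6.57e-06). For both transducers the P7 libraries lay well above every fetal library.

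Bmp4 ran against its receptor. It had 4.47 and 6.69 RPM at E16, 6.36 and 7.33 at E17, and 2.30 and 0.309 at P7, with P7 below the fetal libraries. The log2 fold change from E17 to P7 was -2.22 ± 0.78 (adjusted p = 0.0195, edgeR), from 25 counts at E17 and 8 at P7. It did not pass without E17 replicate 1 (adjusted p = 0.0734), without E17 replicate 2 (0.121) or without P7 replicate 2 (log2 fold change -1.38, adjusted p = 0.166). Without P7 replicate 1 it was -4.06 (adjusted p = 0.0108). Gm15217 and Gm15222 overlap Bmp4 in the annotation and had 0 to 4 and 0 to 15 counts in the testis libraries, so part of so few reads could belong to them. Sums of somatic markers were lower at P7 as well. The Sertoli list summed to 212 to 219 RPM at E17 and 77.0 to 129 at P7. The Leydig list summed to 39.2 to 40.5 and 2.78 to 8.55 RPM. Only 3 of 10 tested Sertoli markers were lower (Clu, Cst12, Inha) and none higher, beside 37.8% of all genes that were lower. Clu alone went from 83.8 and 96.8 RPM to 23.0 and 41.4 RPM. Of 3 tested Leydig markers 2 were lower (Cyp11a1, Lhcgr). What part somatic cells had in the fall of Bmp4 was not tested.

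Among the remaining targets, Atoh8 had 9.44 and 19.0 RPM at E16, 17.9 and 16.7 at E17, and 33.2 and 35.9 at P7. Both P7 libraries were above every fetal one, and the rise from E17 was 1.15 ± 0.32 (log2 fold change, adjusted p = 0.0056, edgeR). Smad6 had 3.98 and 1.06 RPM at E16, 8.09 and 6.80 at E17, and 13.2 and 13.6 at P7, so the ages did not overlap. The value from E17 to P7, 1.00 ± 0.48, did not pass the test (adjusted p = 0.0755).

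Between E16 and E17 no member passed (edgeR), with 3 at an unadjusted p under 0.05 and none with DESeq2, beside 6.6% of all genes (1.64% higher, 4.96% lower). The 3 were Id4 (log2 fold change -0.87, adjusted p = 0.152), Bmpr1a (0.60, adjusted p = 0.112) and Smad6 (1.32, adjusted p = 0.219). All 3 passed once E16 replicate 1 was left out, at -1.18 (adjusted p = 0.00321), 0.85 (0.00405) and 2.37 (0.0185). Bmpr1a also passed in the fit of all 12 libraries (adjusted p = 0.0461). The E16 replicates differed more from each other than those of any other group, with a chi-square of 5.71 per degree of freedom over genes against 1.46 to 3.5 elsewhere. Fitted changes between these ages rest on the scaling: Bmp4 was 5.58 RPM at E16 and 6.84 at E17 on average, while its fitted log2 fold change was -0.07. With ERCC totals the median of all genes moved by 3.02, every tested member was higher at E17 and so were 100% of the genes called, where TMM gave 24.8%.

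Of the 56 other pathway genes, 38 were tested from E17 to P7, and per read 9 rose and 16 fell, with a median of -0.23. Of all genes 30.2% rose and 37.8% fell, so the share of pathway genes called is close to the background. Receptor and SMAD genes did not all rise. Members included, 3 genes of the receptor and co-receptor list rose and 4 fell, and 3 of the SMAD list rose and 1 fell. The one that fell was Smad9, from 12.8 to 2.56 RPM, named after its values were seen. The co-repressor gene Ski rose from 57.6 to 307 RPM (log2 fold change 2.57 ± 0.16, adjusted p = 8.9e-09, edgeR). The antagonist genes Nbl1 (34.2 to 2.18 RPM) and Fstl3 (27.4 to 3.37 RPM) fell, by log2 fold changes of -3.76 ± 0.46 and -2.86 ± 0.43, and the BMP co-receptor gene Rgma fell from 37.8 to 9.14 RPM (-1.89 ± 0.30, adjusted p = 5.54e-05). Of the 8 genes of the helix-loop-helix list, 5 rose and 2 fell, beside the same shares of all genes. Sohlh2, a spermatogonial factor, rose from 13.4 to 54.6 RPM and Ascl2 from 11.7 to 43.3 RPM. Between E16 and E17 none of the 38 passed, beside 6.6% of all genes (edgeR, with 8 at an unadjusted p under 0.05 and none with DESeq2). Of the helix-loop-helix list only Tcf3 passed, at 115 RPM at E16 and 93.3 RPM at E17 (-0.64 ± 0.15, adjusted p = 0.0156).

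**Figure D5:**
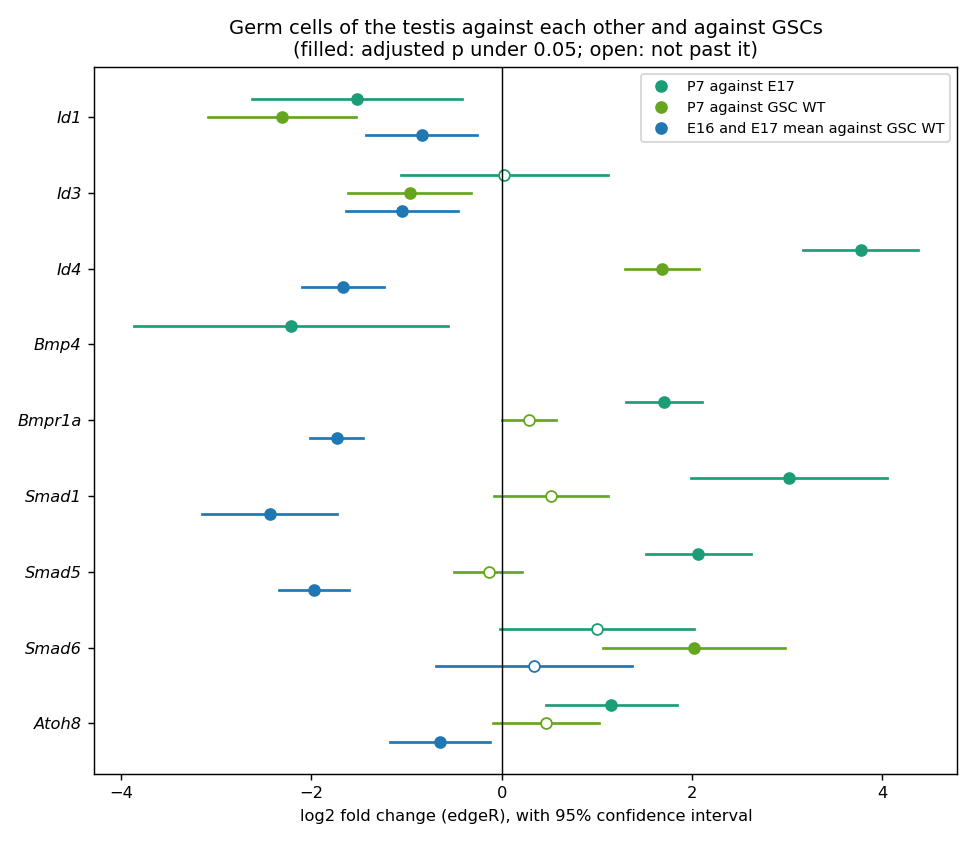
Fitted log2 fold change of each tested member (points, edgeR) with its 95% confidence interval (lines) for P7 against E17, P7 against WT GSCs and the mean of E16 and E17 against WT GSCs; filled points passed an adjusted p of 0.05. Bmp4 against WT GSCs is not drawn since WT held 2 counts; Id4, Bmpr1a, Smad1 and Smad5 lie below 0 for fetal cells against GSCs and above 0 for P7 against E17.

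The third question was how cultured WT GSCs compare with germ cells of the testis. Against P7 germ cells some target genes passed the test, in both directions. The target Atoh8, the ligand, the receptor and the transducers did not pass. Of 9 members tested, Id4 and Smad6 were higher at P7 and Id1 and Id3 lower (edgeR, adjusted p under 0.05). Of 15827 genes 31% passed, 16% higher and 15% lower. The median log2 fold change was 0.47 over the members and 0.03 over all genes. With ERCC totals the median of all genes moved by -0.46, and of the genes called 16.2% were higher, where TMM gave 51.7%. Id4, Smad6, Id1 and Id3 kept their direction then, while Bmpr1a, Smad1 and Atoh8, not past the threshold either way, turned to -0.27, -0.03 and -0.08. Smad5 passed the threshold with that scaling, at -0.69 (adjusted p = 0.0385), below WT. The share of members called, 4 of 9, is not far from the background.

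Id4 was at 38.4 ± 8.82 RPM in WT GSCs (SD, n = 2) and 136 ± 26.4 RPM at P7, a log2 fold change of 1.69 ± 0.19 (adjusted p = 9.85e-09, edgeR). Smad6 was at 2.95 ± 1.47 RPM and 13.4 ± 0.316 RPM (2.02 ± 0.47, adjusted p = 0.00101). For both genes the P7 libraries stood above all 6 GSC libraries. Id1 was at 16.7 ± 1.41 RPM in WT and 3.62 ± 1.87 RPM at P7 (-2.31 ± 0.38, adjusted p = 1.14e-05). Id3 was at 13.1 ± 1.94 RPM and 7.34 ± 0.321 RPM (-0.97 ± 0.32, adjusted p = 0.0186). The Id3 call was lost without WT replicate 2 (-0.82, adjusted p = 0.134), P7 replicate 1 (-1.03, adjusted p = 0.0686) or P7 replicate 2 (-0.95, adjusted p = 0.0888).

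Bmpr1a (0.29, adjusted p = 0.119, edgeR), Smad1 (0.52, 0.191), Smad5 (-0.14, 0.595) and Atoh8 (0.46, 0.21) did not pass. Their 95% confidence intervals ran from 0.00 to 0.57, from -0.08 to 1.12, from -0.50 to 0.22 and from -0.09 to 1.02 on the log2 scale. Bmp4 had 8 counts at P7 and 2 in WT, a ratio of levels of 4.90 with an exact 95% counting interval of 0.978 to 47.3. For Id2, with 5 counts against 2, the ratio was 3.06 (0.501 to 32.1). Neither interval excludes equal levels.

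Of 41 other pathway genes tested, 7 were higher at P7 than in WT GSCs and 3 lower. Of all genes 16% were higher and 15% lower, so the share of pathway genes called does not exceed the background. Follistatin (Fst), a secreted antagonist gene, was at 75.6 RPM against 19.4 (log2 fold change 1.83 ± 0.24, adjusted p = 1.55e-07, edgeR), and Smad7 at 27.1 RPM against 11.9 (1.05 ± 0.30, adjusted p = 0.00709). Of the 8 genes of the helix-loop-helix list 3 were higher and 2 lower, beside the same shares of all genes. Sohlh1 was at 173 RPM at P7 against 58.9 in WT (1.42 ± 0.15), the E protein gene Tcf4 at 39.0 against 10.7 RPM (1.73 ± 0.31) and Ascl2 at 43.3 against 12.1 RPM (1.70 ± 0.30), while Sohlh2 was at 54.6 against 186 RPM (-1.89 ± 0.16). Of 10 tested Sertoli markers 7 were higher at P7 and 1 lower. Of 10 markers of undifferentiated spermatogonia 8 were higher and none lower, with sums of 2246 to 2359 RPM at P7 and 1332 to 1381 RPM in WT, and of 6 markers of differentiating spermatogonia 1 was higher and 4 lower. The part of these markers in the differences, that of Id4 included, was not tested.

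Against the mean of E16 and E17, most of the set was higher in WT GSCs per read. Of 9 members tested 7 were lower in fetal cells and 1 higher (edgeR, adjusted p under 0.05), and 74.2% of 15827 genes passed, 32.3% lower and 41.9% higher, so that 8 of 9 is close to the background. The median was -1.05 over the members and 0.23 over all genes. Bmpr1a (log2 fold change -1.73 ± 0.14, adjusted p = 8.79e-14), Smad1 (-2.44 ± 0.35, 1.33e-07), Smad5 (-1.97 ± 0.18, 4.3e-12) and Id4 (-1.67 ± 0.21, 1.23e-08) showed the larger differences. In each of these the 4 fetal libraries lay below both WT libraries. Id3 was lower by less (-1.05 ± 0.29, adjusted p = 0.00158).

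Id1 (-0.84 ± 0.29, adjusted p = 0.00895, edgeR) and Atoh8 (-0.65 ± 0.26, adjusted p = 0.0251) were lower in fetal cells, but both calls were lost by DESeq2 (adjusted p = 0.0675 and 0.164) and without WT replicate 1 (0.063 and 0.17). Atoh8 was also lost without E16 replicate 1 (-0.47, adjusted p = 0.08), and was at -1.05 without E16 replicate 2 (adjusted p = 0.000388). Smad6 did not pass (0.34, 95% confidence interval -0.69 to 1.37, adjusted p = 0.554). With ERCC totals the median of all genes moved by 2.63, and 98.9% of the genes called were higher, where TMM gave 56.5%. Id1, Id3, Id4, Bmpr1a, Smad1, Smad5 and Atoh8 were then above WT in fetal cells; relative to the median of all genes they kept their sign. Smad6 passed the threshold with that scaling, at 2.97 (adjusted p = 1.7e-06).

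Bmp4 was the member that was higher in fetal cells. It had 53 counts over the 4 fetal libraries and 2 over both WT libraries, a ratio of levels of 24 with an exact 95% counting interval of 6.32 to 203. Every fetal library, at 4.47 to 7.33 RPM, was above both WT libraries. Id2 had 14 counts against 2, a ratio of 6.33 (1.45 to 57.4), with E16 replicate 2 at 0. Sums of somatic cell markers were higher there as well. The peritubular myoid list summed to 85.9 to 116 RPM in the fetal groups and 5.98 to 9.53 RPM in WT, the endothelial list to 151 to 205 RPM against 24.9 to 45 RPM over the GSC groups, and the Leydig list to 31.7 to 40.5 RPM against 1.91 to 2.24 RPM. Their part in the level of Bmp4 and Id2 was not tested.

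Of 41 other pathway genes tested, 17 were higher per read in fetal cells and 9 lower. Of all genes 41.9% were higher and 32.3% lower, so the share of pathway genes called does not exceed the background. The co-receptor gene Rgma was at 33.6 RPM against 0.771 (log2 fold change 5.21 ± 0.47, adjusted p = 2.76e-12, edgeR) and Nbl1 at 32.0 against 2.52 RPM (3.53 ± 0.43, adjusted p = 4e-09). Ski was at 45.2 against 243 RPM (-2.62 ± 0.11, adjusted p = 2e-21). Members included, the receptor and co-receptor list had 5 genes higher, Bmpr1b among them, and 4 lower. The SMAD list had 1 higher and 3 lower. The higher one was Smad9, at 13.3 RPM at E16, 12.8 at E17 and 0.623 in WT. Bmpr1b and Smad9 are named after their values were seen. Of the 8 genes of the helix-loop-helix list 2 were higher and 3 lower, beside the same shares of all genes. Among them were the E protein gene Tcf3 (104 against 429 RPM) and Sohlh2 (11.6 against 186 RPM), both lower.

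Over all 6 groups, the order of levels differed between the ID genes. Id1 was highest in the 3 GSC groups, which overlapped along the order KO2, KO1 and WT, followed by E17, E16 and P7, which overlapped neither with GSCs nor with each other. Id3 ran from KO2 through KO1 and WT without overlap, down to E17, P7 and E16, where neighbours overlapped. Id4 ran from P7 through WT, KO1 and KO2 without overlap, down to E16 and E17, which overlapped. Atoh8 ran from P7 through WT to E17 and E16, which overlapped, and down to KO2 and KO1, which overlapped; its knockout GSCs were thus below every other group. Smad6 ran from P7 through KO2 to E17 and KO1, which overlapped, and then to WT and E16, which overlapped.

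The genes whose pattern over the 12 libraries was most like that of a member were found by Pearson correlation of log2(RPM + 1), over about 7364 genes with a mean of at least 20 RPM. The libraries share groups and depth, so these are descriptions. For Id1 they were Rec8 (r = 0.981), Prpf19 (0.970) and Romo1 (0.964). For Id3 they were Prim1 (0.970), Top2b (0.969) and Mpzl2 (0.956), and for Id4 Trrap (0.985), B4galt1 (0.979) and Mob1a (0.977). Atoh8 was most like Dbndd2 (0.918), Arhgef15 (0.916) and Rcc2 (0.912). Rec8, the closest to Id1, encodes a meiotic cohesin subunit and went from 98.2 RPM in WT GSCs to 39.9 RPM at P7. Mpzl2 had 19.4 RPM in WT cells, 83.9 in line KO1 and 109.9 in line KO2, as Id3 did from 13.1 to 44.5 and 54.6. B4galt1 went from 8.63 RPM at E17 to 81.2 RPM at P7, as Id4 did from 11.1 to 136. For Id2, whose counts are few, no likeness is read.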

How the data were processed

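SC3-seq was used on 12 mouse libraries, 2 per group, and groups and replicate numbers were taken from the sample titles. For WT GSCs the names of the deposited tables number the replicates the other way round, so WT replicates 1 and 2 here are those of the titles. The tools named in the submitters' processing notes are Salmon 1.4.0, HTSeq 0.9.1, TopHat2 2.1.1 and cutadapt 1.18, with build GRCm38.p6; their roles and the strand setting are not stated in the sources used here. Whole read counts per gene, deposited by the authors in 1 table per library and not pooled, are behind every value. RPM were computed from them over non-mitochondrial genes. The 92 ERCC spike-in rows stayed out of gene tests, and blank cells of genes were treated as missing. The P7 tables use another gene list and were joined by Entrez ID (31675 genes with counts in all libraries).

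The test was the quasi-likelihood test of edgeR 4.0.16 in R 4.3.3 (TMM, filterByExpr by group, Benjamini-Hochberg over all genes tested, threshold 0.05). It was run on simulated counts first, in which few genes changed, as many up as down. The simulation thus does not cover comparisons in which most genes change. The 6 GSC libraries gave the knockout comparisons, the 6 testis libraries those between ages, and all 12 libraries those of testis with GSCs. Alternatives were DESeq2 1.42.0, no filter, ERCC totals as size factors, a replicate block, left-out libraries and a fit of all 12 libraries. Ratios of few counts have exact 95% intervals. All members are named. Of other pathway genes, at most 6 per comparison are named, with at least 20 RPM in the higher group and past the threshold. Those named after their values were seen, or to complete a count, are marked so. The members and gene lists were chosen with earlier results of these data known. Promoter windows of 9 members came from RefSeq; that of Id1 was not used here.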

Additional observations from a re-analysis of the deposited data

Results flagged for a closer look

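For a pair of weakly counted genes, both KO1 libraries stood above WT per read and both KO2 libraries below; the difference between the lines was not tested, since the filter on low counts removed both genes. Id2 had 2 counts over the KO1 libraries and 2 over the WT libraries, 1 in each library, so KO1 stood above WT through its smaller libraries alone, and 0 in KO2. Bmp4 had 4 counts over the KO1 libraries, 2 over WT and 0 in KO2. Every one of these libraries held fewer than 3 counts of the gene, the floor, so no fold is given and no difference from WT is shown for either gene.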

How the results depend on the processing

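Of 632 values of members under alternative settings, 568 stayed on their side of the threshold (some short of it changed sign around 0), 31 lost a call, 14 gained one and 19 reversed with a call in either fit. All 19 reversals came with ERCC totals as size factors, where the cause was not tested. Without that setting, none of 564 reversed. ERCC reads made up 1.22% and 1.52% of all counts at E16, 0.194% and 0.231% at E17, and 5.85% and 4.69% at P7. In GSCs they made up 2.80% to 3.41%. Whether these shares follow the RNA of the cells or the handling of the libraries was not tested. With ERCC totals, E17 against E16 gave 2.22 for Id4, 2.98 for Bmp4, 2.92 for Smad1, 2.51 for Smad5 and 2.99 for Atoh8. P7 against E17 gave -4.66 for Id3, -0.94 for Id4, -2.99 for Bmpr1a, -1.63 for Smad1, -2.60 for Smad5, -3.68 for Smad6 and -3.53 for Atoh8. Fetal cells against WT GSCs gave 1.77 for Id1, 1.60 for Id3, 0.94 for Id4, 0.92 for Bmpr1a, 0.15 for Smad1, 0.65 for Smad5 and 1.96 for Atoh8.

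Members called for the mean of the knockout lines numbered 4, and 2 with DESeq2, and 3 to 4 with a library left out. In KO2 they numbered 4, and 2 with DESeq2, 2 in the fit of all 12 libraries and 2 to 3 with a library left out. From E16 to E17 they numbered 0, and 9 with ERCC totals, 1 in the fit of all 12 libraries and 0 to 3 with a library left out. Calls over all genes moved too, and the cause was not tested. For the mean of the lines 2286 became 1083 with DESeq2, 1447 with ERCC totals and 1421 in the fit of all 12 libraries. For KO1, 1622 became 679 with DESeq2, 858 in that fit and 859 to 1779 with a library left out. For KO2, 1860 became 864 with DESeq2, 1191 with ERCC totals, 1008 in that fit and 905 to 1869 with a library left out. For KO1 against KO2, 99 became 35 with DESeq2, 39 in that fit and 41 to 45 with a library left out. For E17 against E16, 975 became 14508 with ERCC totals, 1763 in that fit and 232 to 3645 with a library left out, and for P7 against WT GSCs 4909 became 3200 to 3684.

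The share of higher calls over all genes moved from 44.9% to 31.5% for the mean of the lines and from 45.7% to 30.4% for KO1 in the fit of all 12 libraries. With ERCC totals it was 25.9% for KO1 and, for KO2, 58.4% in place of 46.0%. For KO1 against KO2 it was 65.7%, and 82.9% with DESeq2, 82.1% in the fit of all 12 libraries and 37.0% with ERCC totals. Deviations of same-numbered replicates were only weakly correlated between groups, in either direction (correlations from -0.157 to 0.0955). With so few libraries per group, these values cannot show whether the numbers mark shared handling, and none is assumed. Numbering WT as the table names do would turn the sign of its correlations (-0.157 with E16, -0.143 with P7, 0.0789 with KO1 and 0.039 with KO2) and leave their size as it was. For the comparisons with WT, the block values below hold for the numbers of the titles. With a replicate block, 5 members passed for the mean of the lines (Bmpr1a in addition), and 2531 genes in all. The block left the count of members as it was in the other 7 comparisons, while genes called came to 136 for KO1 against KO2 and 1314 for E17 against E16. For P7 against WT, crossed pairing was added after seeing the data; it gave 4 members and 5019 genes. Depth limits Id2 and Bmp4 in GSCs, and Smad1 and Smad6 in fetal libraries, to a few counts.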
